A study of Rattus norvegicus with 9 samples.

Results

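The antioxidant defence and NRF2 target genes were followed in synovial fibroblasts of the rat, cells of connective tissue that line the joint. The set comprised 39 genes chosen by symbol among the 17298 genes of the deposited table: the NRF2 regulators, the superoxide dismutases and catalase, the glutathione, thioredoxin and peroxiredoxin, heme and iron, quinone reductase and NADPH supply branches, and Osgin1. Polyadenylated RNA was sequenced in 9 libraries, 3 in each of 3 groups of wild-type (WT) cells isolated from synovium with collagenase: cells stimulated with IL-1β and co-cultured with dermal fibroblasts (co-culture), cells given IL-1β alone, and cells without IL-1β in routine culture (control). In co-culture the synovial cells lay in the lower and the dermal cells in the upper chamber of a transwell. The labels state neither the sex, age and strain of the rats nor the dose and duration of IL-1β. Nor is it stated if libraries within a group are separate animals or cultures, so the p-values cover the spread of these libraries alone, which may be technical. All 9 libraries are of synovial fibroblasts, and co-culture without IL-1β was not analysed here.

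NRF2 is a transcription factor that the adaptor KEAP1 holds in the cytoplasm and marks for degradation. Oxidants and electrophiles modify KEAP1, and NRF2 then enters the nucleus, pairs with a small MAF protein and binds antioxidant response elements in front of genes for glutathione synthesis, thioredoxin recycling, quinone reduction, iron storage and NADPH supply. The superoxide dismutases turn superoxide into hydrogen peroxide, which catalase, the glutathione peroxidases and the peroxiredoxins remove. Of these enzymes, Sod2 is a known target of NF-kB, the factor that IL-1 activates in fibroblasts.

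Levels are FPKM, which scale fragments by transcript length and library size, and are therefore relative within a library. Genes with a mean of at least 1 FPKM over the 9 libraries were tested (11372 genes), and all 39 antioxidant genes were among them, from Osgin1 at a mean of 1.58 FPKM to Ftl1 at 2992 FPKM. Fold changes are differences of log2(FPKM + 1) with the standard error of a limma fit over all 9 libraries, and adjusted p-values are Benjamini-Hochberg values over the 11372 genes, with a threshold of 0.05. A gene "rose" or "fell" where it passed that threshold. In bulk RNA, fewer cells of a type and less RNA per cell cannot be told apart.

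FPKM sums were 679774 to 741810 per library, and rank correlations across genes were 0.9946 to 0.9959 within groups and 0.9584 to 0.9912 between groups. All 10 fibroblast markers were expressed, and with IL-1β 5 were higher and 5 lower than in control. Of all genes tested, 20.5% were higher and 31.2% lower in that comparison. Thy1 was at 601 to 772 FPKM and Pdgfra at 134 to 169 FPKM over all libraries, whereas others of the list differed widely between groups. Dcn averaged 1196 FPKM in co-culture, 3112 FPKM with IL-1β and 641 FPKM in control, and Vim averaged 4342 FPKM in co-culture, 2114 FPKM with IL-1β and 4902 FPKM in control. The pan-leukocyte marker Ptprc was at 0.04 to 0.13 FPKM and the endothelial marker Pecam1 at 0.12 to 0.49 FPKM. Of 15 macrophage and leukocyte markers, 14 had a row, 4 reached a mean of 1 FPKM, and their summed level was 30.5 to 32.6 FPKM in co-culture, 41.4 to 45.9 FPKM with IL-1β and 29.7 to 31.5 FPKM in control. The summed level of 5 chondrocyte markers, led by Col2a1, was 78.8 to 81.8 FPKM in co-culture and 23.8 to 27 FPKM with IL-1β. In control it was 193.1 to 207.6 FPKM. With IL-1β 5 of 5 were lower than in control, beside 31.2% of all genes tested. In co-culture 5 of 5 were higher than with IL-1β, beside 33.3% of all genes tested. The summed level of 5 adipocyte markers was 638.1 to 665.2 FPKM in co-culture, 609.1 to 645.6 FPKM with IL-1β and 809.2 to 854.3 FPKM in control. That of the pericyte and smooth muscle markers, of which 4 of 5 were tested, was 25.4 to 27.1 FPKM in co-culture, 10.3 to 12.3 FPKM with IL-1β and 28.8 to 29.9 FPKM in control. The chondrocyte and the pericyte and smooth muscle sums, like Gpx3, Nqo1 and Ftl1 below, were lowest with IL-1β and highest in control, and the adipocyte sums of co-culture and IL-1β overlapped. The part of any of these marker lists in the results was not tested.

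With IL-1β, 11 of the 39 genes rose, 16 fell and 12 did not pass the threshold. The share past the threshold, 69.2%, stood beside 51.7% of all genes tested (20.5% higher and 31.2% lower). On the log2 scale the median change was -0.05 for the 39 genes and -0.044 for all genes. The groups did not overlap for 28 of the 39 genes, beside 58.3% of all genes, and 6 genes passed with a change of at least 0.5 on the log2 scale, beside 13.6%. The split depended on the scaling: median-of-ratios scaling gave 14 higher and 15 lower, quantile normalization 9 higher and 20 lower. The genes did not move together: Sod2 and Prdx5 rose most, and Gpx3, Nqo1 and Ftl1 fell most.

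In co-culture set against IL-1β alone, 18 genes were higher, 8 lower and 13 not past the threshold, beside 50.0% of all genes past it (33.3% higher and 16.7% lower). Groups did not overlap for 28 genes, beside 56.7%, and 4 genes (Gpx3, Ftl1, Nqo1 and Sod2) passed with a change of at least 0.5, beside 9.28%. Median-of-ratios scaling gave 13 higher and 13 lower, quantile normalization 18 and 8. Against control, 9 genes were higher and 7 lower in co-culture, beside 20.3% of all genes past the threshold (12.4% higher and 7.91% lower). Groups did not overlap for 25 genes, beside 37.8%, and Sod2 alone passed with a change of at least 0.5, beside 2.44%. Median-of-ratios scaling gave 8 higher and 11 lower, quantile normalization 6 and 15. These comparisons share libraries: the IL-1β libraries stand in the first and second, the control libraries in the first and last, and the co-culture libraries in the second and last.

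**Figure D1:**
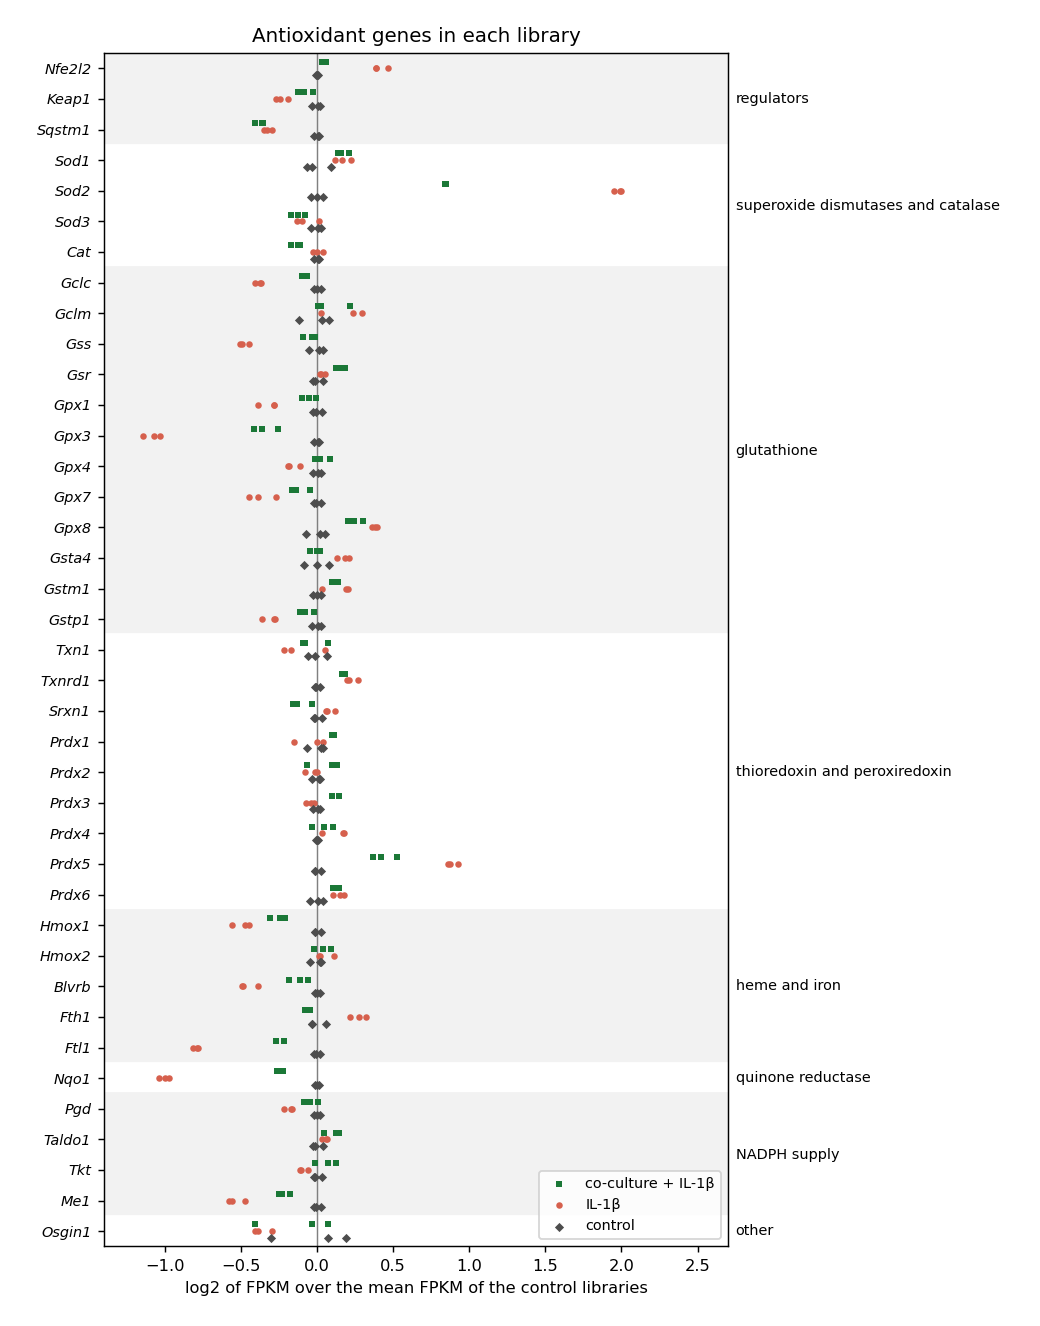
Each point is 1 library, placed on the log2 of its FPKM over the mean FPKM of the 3 control libraries, with 39 genes in rows grouped by branch (squares co-culture with IL-1β, circles IL-1β, diamonds control). Sod2 and Prdx5 stand to the right of control with IL-1β, Gpx3, Nqo1 and Ftl1 to the left, and for these 5 genes the co-culture libraries lie between the other groups.

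Of the 3 regulators, 1 rose and 2 fell with IL-1β, beside 51.7% of all genes past the threshold. Nfe2l2, which encodes NRF2, had 117.31, 117.28 and 123.84 FPKM in the IL-1β libraries, against 89.23, 89.93 and 90.12 FPKM in the control libraries, and the groups did not overlap. It rose by 0.41 ± 0.029 on the log2 scale (adjusted p = 3.1e-07). In co-culture it had 93.47, 92.09 and 91.85 FPKM, a log2 fold change of -0.37 ± 0.029 against IL-1β (adjusted p = 1.3e-06), and 0.04 ± 0.029 against control (adjusted p = 0.35). The mRNA level does not report the amount of NRF2 protein, which is set largely by its degradation.

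Keap1, the NRF2 inhibitor gene, went the other way at a lower level. It had 14.89, 14.59 and 15.42 FPKM in the IL-1β libraries, against 17.71, 17.23 and 17.88 FPKM in the control libraries (log2 fold change -0.22 ± 0.041, adjusted p = 0.00078). The co-culture libraries had 17.31, 16.61 and 16.16 FPKM, a log2 fold change of 0.15 ± 0.041 against IL-1β (adjusted p = 0.01, but 0.093 after median-of-ratios scaling). Sqstm1 encodes p62, an autophagy receptor that binds KEAP1. It had 188.52, 184.36 and 182.06 FPKM with IL-1β, against 232.37, 228.77 and 233.65 FPKM in control (log2 fold change -0.32 ± 0.027, adjusted p = 1.2e-06). Co-culture gave 179.88, 174.9 and 180.65 FPKM, which lay below both other groups. The fall against control was 0.37 ± 0.027 on the log2 scale (adjusted p = 2.1e-06), and the difference from IL-1β was -0.05 ± 0.027 (adjusted p = 0.14, but -0.12 and 0.0045 after median-of-ratios scaling).

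The partners and competitors of NRF2 at its sites were taken from a wider list of pathway genes. Of 6 tested regulator genes, 4 rose with IL-1β and none fell (66.7%, beside 51.7% of all genes past the threshold). They were Maff, Mafg and Mafk, which encode the small MAF partners, and Bach1, a repressor of NRF2 target genes, all 4 named after their values were seen. Mafk had 19.49, 18.47 and 19.74 FPKM with IL-1β, against 10.58, 10.92 and 11.18 FPKM in control (log2 fold change 0.77 ± 0.05, adjusted p = 1.3e-07). Bach1 averaged 10.3 FPKM with IL-1β and 8.63 FPKM in control (log2 fold change 0.23 ± 0.065, adjusted p = 0.01). In co-culture set against IL-1β, the small MAF genes were lower, with log2 fold changes of -0.65 for Maff (adjusted p = 4.4e-06), -0.49 for Mafg (3.6e-07) and -0.58 for Mafk (2.4e-06). Bach1 did not pass there (-0.15 ± 0.065, adjusted p = 0.082), but did under 5 of 18 alternatives (0.025 to 0.047), among them without control replicate 3.

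The antioxidant response element was searched for as TGACNNNGC on both strands, from 250 bases before to 50 bases after each annotated start in the RefSeq promoters of rat assembly GRCr8. Of the 39 genes, 32 were matched by gene ID, and Fth1, Ftl1, Gpx8, Gsr, Hmox1, Prdx6 and Sod3 were not. The core was found in 10 of the 32 genes (31.2%), and in 13.1% of the 27457 genes with a promoter in the table. These are matches of letters and no evidence of binding. The stretches are shown for 6 genes, chosen because the same core stands in front of genes that moved in different directions with IL-1β. Sod2 and Txnrd1 rose, Gstp1 and Me1 fell, and Prdx1 and Gclm did not pass. Of the other genes with the core, Nfe2l2, Prdx4 and Prdx5 rose and Hmox2 did not pass, so the 6 do not show the split of all 10. Each stretch is written 5′ to 3′ on the gene's strand, with the core in capitals, and a core on the opposite strand reads GC first.
Sod2: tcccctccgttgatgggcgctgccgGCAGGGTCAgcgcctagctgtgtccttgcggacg
Txnrd1: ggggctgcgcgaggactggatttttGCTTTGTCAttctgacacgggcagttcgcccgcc
Gstp1: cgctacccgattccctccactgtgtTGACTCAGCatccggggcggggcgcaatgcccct
Me1: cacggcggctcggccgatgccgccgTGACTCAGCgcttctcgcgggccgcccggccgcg
Prdx1: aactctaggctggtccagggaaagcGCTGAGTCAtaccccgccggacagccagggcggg
Gclm: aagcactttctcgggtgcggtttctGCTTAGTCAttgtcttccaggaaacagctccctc
The core begins 35 bases before the start in Sod2 (chr1:50050170-50050228, minus strand), 78 in Txnrd1 (chr7:22755949-22756007, minus strand) and 61 in Gstp1 (chr1:210769733-210769791, minus strand). It begins 167 bases before the start in Me1 (chr8:96540378-96540436, minus strand), 135 in Prdx1 (chr5:135383746-135383804, plus strand) and 172 in Gclm (chr2:213031938-213031996, plus strand). In Gstp1, Me1 and Prdx1 the core overlaps an AP-1 site, TGANTCA, which was found in 4 of the 32 genes (12.5%) and in 8.04% of all genes with a promoter. A motif of NF-kB was found in Gpx4 and Prdx3 (6.25% of the 32 genes) and in 1.38% of all genes with a promoter.

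Of the 3 superoxide dismutases and catalase, 2 genes rose and none fell with IL-1β, or 1 rose and 1 fell under quantile normalization. The share of this branch past the threshold, 50.0%, stood beside 51.7% of all genes. Sod2, the manganese enzyme of mitochondria, had 1474, 1517 and 1522 FPKM in the IL-1β libraries, against 382, 371 and 392 FPKM in the control libraries. It rose 3.94-fold by the ratio of mean FPKM, with a log2 fold change of 1.98 ± 0.029 (adjusted p = 2e-13), and ranked 108 of the 11372 genes by log2 fold change. The co-culture libraries had 686, 682 and 683 FPKM, between the other groups without overlap. Against IL-1β the log2 fold change was -1.14 ± 0.029 (adjusted p = 5.6e-11), and against control it was 0.84 ± 0.029 (adjusted p = 4.3e-09), which ranked 73.

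Sod1, the copper-zinc enzyme of the cytosol, had 324, 335 and 349 FPKM with IL-1β, against 286, 292 and 319 FPKM in control (log2 fold change 0.17 ± 0.043, adjusted p = 0.0067, but 0.055 after quantile normalization). Its co-culture libraries had 333, 328 and 346 FPKM, which overlapped with IL-1β (log2 fold change 0.00, adjusted p = 1). Its rise against control in co-culture, 0.17 ± 0.043 (adjusted p = 0.018), was lost without control replicate 1 (adjusted p = 0.077), control replicate 2 (0.068) or co-culture replicate 3 (0.067). Sod3, the secreted enzyme, had 144.07, 133.85 and 130.25 FPKM with IL-1β, against 143.87, 145.89 and 139.37 FPKM in control, and the groups overlapped. It did not pass with IL-1β (log2 fold change -0.07 ± 0.041, adjusted p = 0.16, but 0.026 without IL-1β replicate 1 and 0.035 under quantile normalization). Co-culture libraries had 126.79, 135.52 and 131.14 FPKM of Sod3, -0.12 ± 0.041 against control (adjusted p = 0.052), and passed under 6 of 18 alternatives (0.021 to 0.043), among them without IL-1β replicate 1 and without IL-1β replicate 3.

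Sod2 made up 59.4 ± 0.52% of the summed FPKM of the 3 dismutases in co-culture, 76.1 ± 0.26% with IL-1β and 46.3 ± 0.6% in control (SD, n = 3 each). Cat, the peroxisomal catalase that breaks down hydrogen peroxide, had 96.39, 92.04 and 93.53 FPKM with IL-1β, against 94.6, 92.37 and 94.22 FPKM in control, and the groups overlapped (log2 fold change 0.00 ± 0.03, adjusted p = 0.93). It was lower in co-culture, at 85.85, 86.86 and 83.37 FPKM, with a log2 fold change of -0.14 ± 0.03 against IL-1β (adjusted p = 0.0026) and -0.13 ± 0.03 against control (adjusted p = 0.0085).

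**Figure D2:**
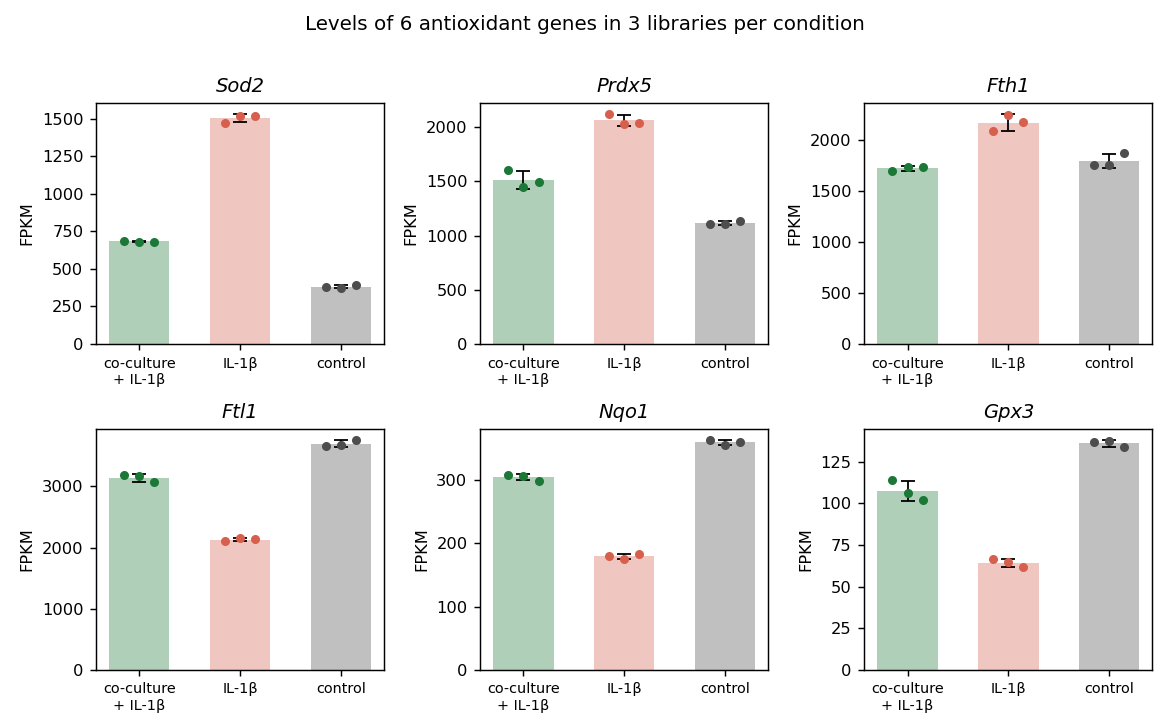
Bars give the mean FPKM of 3 libraries, whiskers the SD and points the libraries, for co-culture with IL-1β, IL-1β and control. Sod2, Prdx5 and Fth1 are highest with IL-1β, whereas Ftl1, Nqo1 and Gpx3 are lowest there.

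The glutathione branch held 12 genes, with a median log2 fold change of -0.23 with IL-1β. Of the 12, 3 rose and 7 fell (83.3%, beside 51.7% of all genes). Either other scaling gave 4 and 7. Of the genes of synthesis, Gclc and Gss fell. Gclc, the catalytic subunit of glutamate-cysteine ligase, which makes the first and limiting step, had 45.64, 45.5 and 44.41 FPKM with IL-1β, against 58.73, 59.82 and 58.09 FPKM in control (log2 fold change -0.37 ± 0.029, adjusted p = 5.6e-07). Gss, the synthetase of the next step, had 42.22, 40.54 and 41 FPKM with IL-1β, against 59.22, 58.25 and 55.5 FPKM in control (log2 fold change -0.47 ± 0.036, adjusted p = 4.7e-07). Gclm, the modifier subunit of the ligase, averaged 20.8 ± 1.99 FPKM with IL-1β and 18.2 ± 1.31 FPKM in control (SD, n = 3 each), and the groups overlapped. It did not pass (log2 fold change 0.18 ± 0.077, adjusted p = 0.072), but did after median-of-ratios scaling (0.028), under quantile normalization (0.042) and without IL-1β replicate 1 (0.014). Gsr, the reductase that regenerates glutathione, did not pass with IL-1β (log2 fold change 0.03 ± 0.031, adjusted p = 0.44).

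In co-culture both Gclc and Gss were higher than with IL-1β, Gclc at 55.47, 56.12 and 54.97 FPKM (log2 fold change 0.29 ± 0.029, adjusted p = 7.3e-06) and Gss at 54.19, 56.4 and 57.09 FPKM (0.43 ± 0.036, adjusted p = 1.7e-06). Against control neither passed the threshold in co-culture, Gclc at -0.08 ± 0.029 (adjusted p = 0.065, but 0.034 with median-of-ratios and 0.014 with quantile scaling) and Gss at -0.04 ± 0.036 (adjusted p = 0.43). Gsr was higher in co-culture than in control, 65.2 ± 1.32 and 58.5 ± 1.42 FPKM (log2 fold change 0.15 ± 0.031, adjusted p = 0.0042).

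The glutathione peroxidases were split. Gpx3, the secreted selenoenzyme found in plasma, had 66.41, 64.59 and 61.49 FPKM with IL-1β, against 136.71, 137.47 and 133.81 FPKM in control. It fell by 1.07 ± 0.042 on the log2 scale (adjusted p = 1.3e-09), the largest fall among the 39 genes, and stood 186 from the lowest of the 11372 genes. Co-culture libraries held 113.73, 106.03 and 102.05 FPKM, between the other groups (0.73 ± 0.042 against IL-1β, adjusted p = 7.5e-08, and -0.34 ± 0.042 against control, adjusted p = 0.00017). Gpx1, the cytosolic selenoenzyme, had 205.02, 204.6 and 190.58 FPKM with IL-1β, against 244.59, 248.03 and 254.51 FPKM in control (log2 fold change -0.32 ± 0.036, adjusted p = 1.9e-05), and was higher in co-culture than with IL-1β by 0.26 ± 0.036 (adjusted p = 9.9e-05). Gpx4, which reduces lipid hydroperoxides in membranes and restrains ferroptosis, had 334, 353 and 335 FPKM with IL-1β, against 383, 373 and 388 FPKM in control, and fell by 0.16 ± 0.035 on the log2 scale (adjusted p = 0.0023). In co-culture Gpx4 had 404.95, 385.51 and 377.61 FPKM, 0.19 ± 0.035 above IL-1β (adjusted p = 0.00083), and overlapped with control (0.03 ± 0.035, adjusted p = 0.6).

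The peroxidases of the endoplasmic reticulum went in opposite directions. Gpx8 had 401, 406 and 410 FPKM with IL-1β, against 297, 317 and 323 FPKM in control, and rose by 0.38 ± 0.037 on the log2 scale (adjusted p = 5.4e-06). Gpx7 averaged 76.2 ± 4.78 FPKM with IL-1β and 98.3 ± 1.68 FPKM in control, and fell by 0.36 ± 0.045 on the log2 scale (adjusted p = 3.8e-05). In co-culture Gpx8 had 385, 370 and 359 FPKM, 0.25 ± 0.037 above control (adjusted p = 0.00069) and -0.13 ± 0.037 against IL-1β (adjusted p = 0.014, but 0.056 without co-culture replicate 3). Gpx7 was 0.25 ± 0.045 higher in co-culture than with IL-1β (adjusted p = 0.00085), and against control it did not pass (-0.12 ± 0.045, adjusted p = 0.099, but 0.034 after quantile normalization and 0.045 without IL-1β replicate 1).

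The glutathione transferases, which conjugate glutathione to electrophiles, were led in level by Gstp1. It had 782, 829 and 826 FPKM with IL-1β, against 980, 1009 and 1021 FPKM in control (log2 fold change -0.30 ± 0.035, adjusted p = 2e-05). In co-culture Gstp1 had 989, 948 and 929 FPKM, 0.23 ± 0.035 above IL-1β (adjusted p = 0.00021), and the libraries overlapped with control (-0.07 ± 0.035, adjusted p = 0.18, but -0.19 and 0.00042 after quantile normalization). Gsta4, a transferase for lipid peroxidation products, and Gstm1 rose slightly with IL-1β, by 0.17 ± 0.047 (adjusted p = 0.012) and 0.14 ± 0.044 (adjusted p = 0.02). The call of Gsta4 was lost without control replicate 1 (adjusted p = 0.055). That of Gstm1 was lost without control replicate 2 (0.068), IL-1β replicate 1 (0.074) or IL-1β replicate 3 (0.078). Gstm1 did not pass in co-culture against control (0.12 ± 0.044, adjusted p = 0.086), but did without IL-1β replicate 2 (0.025) and when only the 6 libraries compared were fitted (0.03). Transferases of 1 class are similar in sequence, and reads of Gstm1 and Gsta4 may be divided among family members.

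Of the 12 glutathione genes, 8 were higher and 2 lower in co-culture than with IL-1β (83.3%, beside 50.0% of all genes). Median-of-ratios scaling gave 7 and 2 there. Against control 2 were higher, 1 lower and 9 not past the threshold, while median-of-ratios scaling gave 2 higher and 2 lower and quantile normalization 2 and 4. The summed level of the branch was 2404 ± 72 FPKM in co-culture, 2123 ± 27.3 FPKM with IL-1β and 2425 ± 37.8 FPKM in control (SD, n = 3 each).

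In the thioredoxin and peroxiredoxin branch of 9 genes, 4 rose and none fell with IL-1β (44.4%, beside 51.7% of all genes). Median-of-ratios scaling gave 5 and none, and quantile normalization 2 and 3. In co-culture 2 of the 9 were higher and 2 lower than with IL-1β (44.4%, beside 50.0% of all genes), or 1 and 5 with median-of-ratios scaling. Against control 4 of the 9 were higher in co-culture and none lower (44.4%, beside 20.3% of all genes). There median-of-ratios scaling gave 4 and 1, and quantile normalization 2 and 1. Prdx5, a peroxiredoxin of mitochondria, peroxisomes and cytosol, had 2119, 2028 and 2043 FPKM with IL-1β, against 1107, 1109 and 1136 FPKM in control. It rose 1.85-fold by the ratio of mean FPKM (log2 fold change 0.88 ± 0.039, adjusted p = 4.3e-09). In co-culture Prdx5 had 1606, 1445 and 1496 FPKM, between the other groups without overlap (-0.45 ± 0.039 against IL-1β, adjusted p = 2.8e-06, and 0.44 ± 0.039 against control, adjusted p = 1.3e-05). Its share of the summed FPKM of the 6 peroxiredoxins was 41.7 ± 1% in co-culture, 50.9 ± 1.8% with IL-1β and 36 ± 0.51% in control (SD, n = 3 each).

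The other peroxiredoxins changed less. Prdx1, the main cytosolic form, had 925, 1055 and 1027 FPKM with IL-1β, against 1045, 979 and 1053 FPKM in control, and the groups overlapped (log2 fold change -0.03 ± 0.047, adjusted p = 0.56, but -0.17 and 0.0052 after quantile normalization). Co-culture libraries had 1109, 1097 and 1097 FPKM, 0.14 ± 0.047 against IL-1β (adjusted p = 0.03). This call was lost under 7 of 18 alternatives (adjusted p = 0.056 to 0.22), among them without IL-1β replicate 1 and without co-culture replicate 1, 2 or 3. Prdx2 did not pass in any comparison, with log2 fold changes of -0.03, 0.08 and 0.05, although its difference between co-culture and IL-1β passed without co-culture replicate 3 (0.0069). Prdx3, the mitochondrial form, was higher in co-culture than with IL-1β, at 114 ± 2.07 and 101 ± 1.9 FPKM (log2 fold change 0.17 ± 0.028, adjusted p = 4e-04), and higher than in control by 0.13 ± 0.028 (0.0085, but 0.057 under quantile normalization). Prdx6 rose with IL-1β by 0.14 ± 0.031 (adjusted p = 0.0026, but 0.68 after quantile normalization). Its rise in co-culture against control, 0.12 ± 0.031 (adjusted p = 0.019), was lost without control replicate 3 (0.069), without co-culture replicate 1 (0.067) and after quantile normalization (0.34). Prdx4, of the endoplasmic reticulum, rose with IL-1β by 0.13 ± 0.044 (adjusted p = 0.029), a call lost under 8 of 18 alternatives (0.054 to 0.39), among them without any 1 control replicate and without IL-1β replicate 2 or 3. Its difference between co-culture and IL-1β, -0.09 ± 0.044 (adjusted p = 0.11), passed without IL-1β replicate 1 (0.014) and with median-of-ratios scaling (0.0099).

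Thioredoxin itself, Txn1, had 1200, 1241 and 1451 FPKM with IL-1β, against 1464, 1385 and 1342 FPKM in control, and the groups overlapped. It did not pass (log2 fold change -0.11 ± 0.071, adjusted p = 0.22), but did without IL-1β replicate 3, its highest library with IL-1β (-0.19, adjusted p = 0.015), and under quantile normalization (-0.23, adjusted p = 0.029). Its difference between co-culture and IL-1β did not pass (0.08 ± 0.071, adjusted p = 0.4), but did without IL-1β replicate 3 (0.16, adjusted p = 0.037). The co-culture libraries had 1321.63, 1307.5 and 1466.65 FPKM of Txn1 and overlapped with both other groups. Txnrd1, the selenoenzyme that recycles thioredoxin, had 109.86, 110.78 and 115.25 FPKM with IL-1β, against 96.98, 95.39 and 94.85 FPKM in control, and rose by 0.22 ± 0.028 on the log2 scale (adjusted p = 4.2e-05). It was also higher than control in co-culture, at 107.23, 108.86 and 107.41 FPKM (0.17 ± 0.028, adjusted p = 0.0014), and its difference from IL-1β did not pass (-0.05 ± 0.028, adjusted p = 0.14, but -0.12 and 0.0033 with median-of-ratios scaling). Srxn1, sulfiredoxin, which restores overoxidized peroxiredoxins, averaged 30.7 ± 1.44 FPKM in co-culture, 35 ± 0.811 FPKM with IL-1β and 33.1 ± 0.672 FPKM in control (SD, n = 3 each). The groups did not overlap, and the difference between co-culture and IL-1β passed (-0.18 ± 0.039, adjusted p = 0.0024). Against control the co-culture value did not pass (-0.10 ± 0.039, adjusted p = 0.091), but did without co-culture replicate 3 (0.031) and under both other scalings (0.049 and 0.031).

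**Figure D3:**
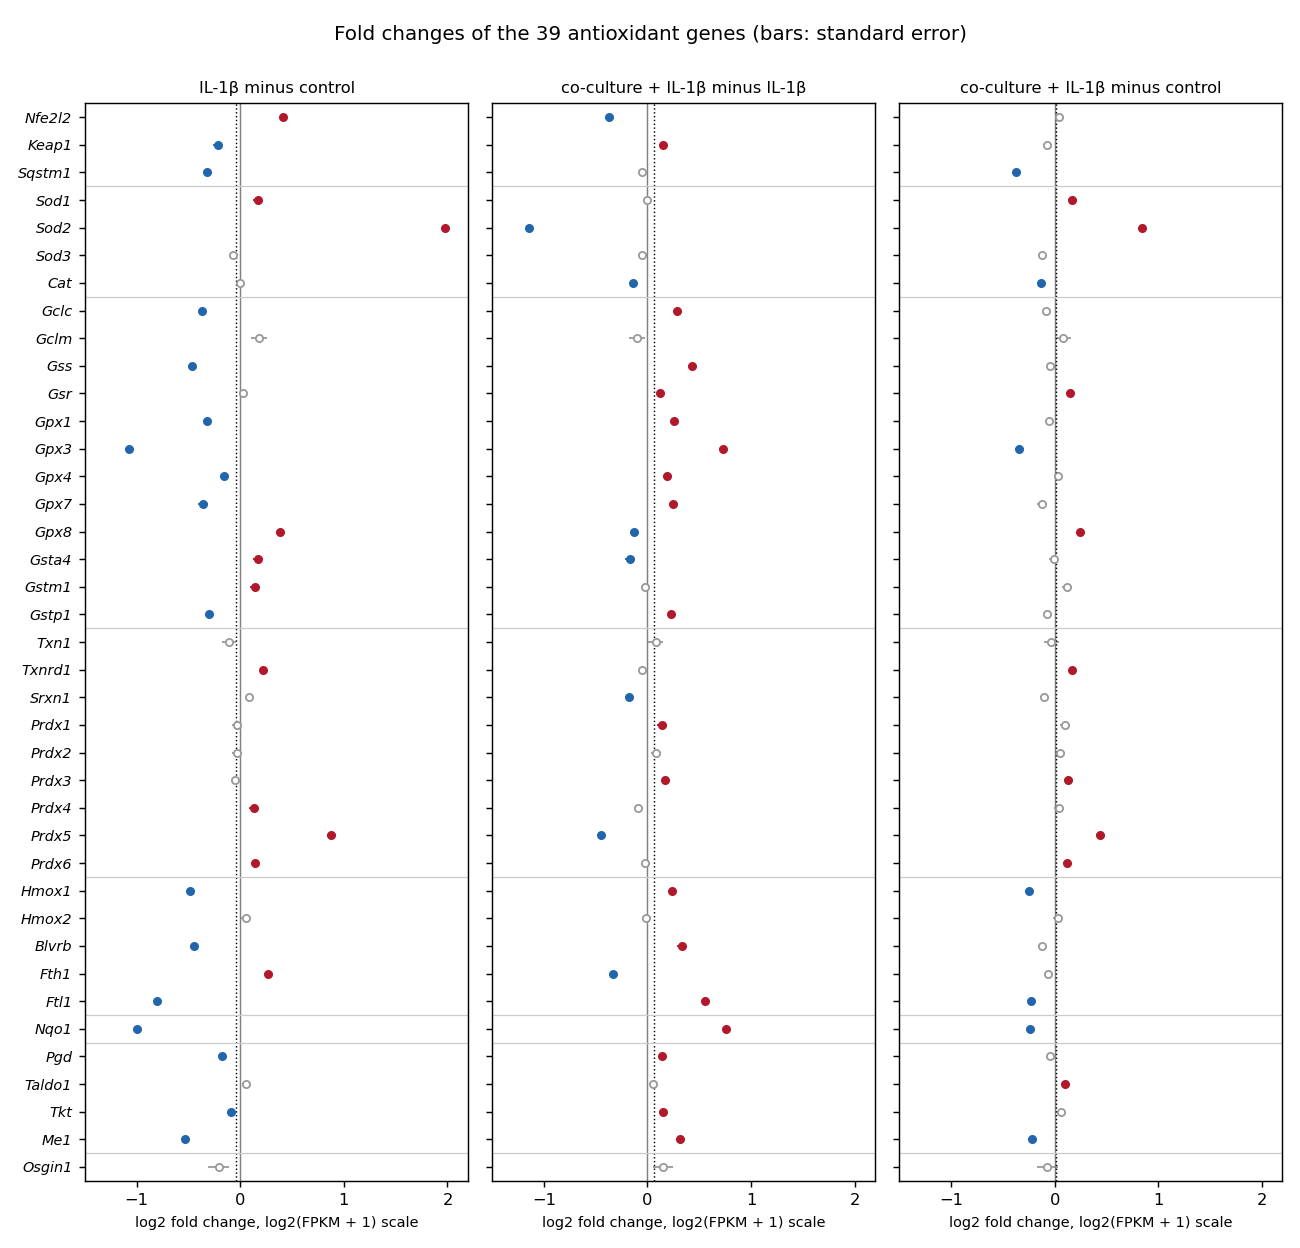
Points give the log2 fold change of each of the 39 genes on the log2(FPKM + 1) scale with its standard error, in 3 panels: IL-1β against control, co-culture against IL-1β, and co-culture against control. Filled points passed an adjusted p of 0.05 (red higher, blue lower), open points did not, and the dotted line is the median of all 11372 genes, at -0.044, 0.062 and 0.018.

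Of the 5 heme and iron genes, 1 rose and 3 fell with IL-1β (80.0%, beside 51.7% of all genes). In co-culture 3 of the 5 were higher and 1 lower than with IL-1β (80.0%, beside 50.0% of all genes). The ferritin chains went in opposite directions. Ferritin stores iron in a shell of heavy chains, which oxidize it, and light chains, which help to mineralize it. Fth1, the heavy chain gene, had 2089, 2253 and 2181 FPKM with IL-1β, against 1762, 1761 and 1875 FPKM in control, and rose by 0.27 ± 0.037 on the log2 scale (adjusted p = 7.5e-05). Ftl1, the light chain gene and the most abundant of the 39, had 2101, 2150 and 2143 FPKM with IL-1β, against 3657, 3687 and 3759 FPKM in control, and fell by 0.80 ± 0.029 on the log2 scale (adjusted p = 7.4e-10). The heavy chain made up 35.5 ± 0.71% of the summed ferritin FPKM in co-culture, 50.5 ± 0.66% with IL-1β and 32.7 ± 0.51% in control (SD, n = 3 each). Ferritin genes have many processed copies in the genome, and how the deposited values treat reads from such copies is not given in the sources used here.

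In co-culture Fth1 had 1701, 1740 and 1743 FPKM, -0.33 ± 0.037 against IL-1β (adjusted p = 2e-05). It did not pass against control (-0.06 ± 0.037, adjusted p = 0.31, but -0.12 and 0.036 after quantile normalization). Ftl1 had 3187, 3177 and 3070 FPKM in co-culture, 0.56 ± 0.029 above IL-1β (adjusted p = 3.1e-08) and -0.23 ± 0.029 against control (adjusted p = 0.00017).

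Of the heme-degrading enzymes, Hmox1 and Blvrb fell with IL-1β. Hmox1, the inducible heme oxygenase and a classical NRF2 target, had 140.71, 137.7 and 130.16 FPKM with IL-1β, against 189.77, 189.9 and 194.78 FPKM in control (log2 fold change -0.49 ± 0.036, adjusted p = 4e-07). Its level in co-culture was 161.46, 165.7 and 154.69 FPKM, between the other groups (0.24 ± 0.036 against IL-1β, adjusted p = 0.00023, and -0.25 ± 0.036 against control, adjusted p = 0.00051). Blvrb, biliverdin reductase B, averaged 88.5 ± 3.98 FPKM in co-culture, 70 ± 2.94 FPKM with IL-1β and 96 ± 1.1 FPKM in control (SD, n = 3 each). It fell by 0.45 ± 0.04 on the log2 scale with IL-1β (adjusted p = 1.8e-06) and was 0.33 ± 0.04 higher in co-culture than with IL-1β (adjusted p = 3.2e-05). Its difference between co-culture and control, -0.12 ± 0.04 (adjusted p = 0.059), passed under 5 of 18 alternatives (0.0089 to 0.05), among them both other scalings, without IL-1β replicate 3 and without co-culture replicate 1. Hmox2, the constitutive heme oxygenase, averaged 26 ± 0.999 FPKM with IL-1β and 25.1 ± 0.676 FPKM in control and passed in no comparison.

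Nqo1, the quinone reductase that is often read as a marker of NRF2 activity, had 179.7, 175.18 and 182.89 FPKM with IL-1β, against 363.14, 356.02 and 359.94 FPKM in control. It fell by 1.00 ± 0.027 on the log2 scale (adjusted p = 5.3e-11), to a ratio of 0.498 of the mean FPKM in control. The co-culture libraries had 308.6, 306.57 and 299.25 FPKM, between the other groups without overlap (0.76 ± 0.027 against IL-1β, adjusted p = 1.2e-09, and -0.24 ± 0.027 against control, adjusted p = 1e-04). Osgin1, an NRF2 target that restrains growth, lay at 1.32 to 2 FPKM in all libraries and passed in no comparison. Its difference between IL-1β and control (log2 fold change -0.21 ± 0.099, adjusted p = 0.092) passed without control replicate 3 (0.025).

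Of the 4 genes of NADPH supply, 3 fell with IL-1β and none rose (75.0%, beside 51.7% of all genes). Median-of-ratios scaling gave 2 lower and 1 higher. In co-culture 3 of the 4 were higher than with IL-1β and none lower (75.0%, beside 50.0% of all genes). Median-of-ratios scaling gave 1 and none there. Me1, the cytosolic malic enzyme, had 36.26, 36.77 and 39.07 FPKM with IL-1β, against 53.39, 54 and 55.24 FPKM in control (log2 fold change -0.53 ± 0.037, adjusted p = 2.4e-07). In co-culture Me1 had 47.94, 46.27 and 45.49 FPKM (0.31 ± 0.037 against IL-1β, adjusted p = 3.2e-05, and -0.22 ± 0.037 against control, adjusted p = 0.0017). Pgd, an NADPH-producing enzyme of the pentose phosphate pathway, had 397, 410 and 411 FPKM with IL-1β, against 467, 460 and 455 FPKM in control (log2 fold change -0.18 ± 0.031, adjusted p = 0.00047).

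Pgd was higher in co-culture than with IL-1β, at 462, 433 and 446 FPKM (0.14 ± 0.031, adjusted p = 0.0033, but 0.063 after median-of-ratios scaling). Tkt, transketolase, was at 197, 191 and 191 FPKM with IL-1β, against 203, 211 and 204 FPKM in control. Its fall of 0.09 ± 0.036 on the log2 scale (adjusted p = 0.049) was lost under 9 of 18 alternatives (0.06 to 0.32), among them without any 1 control replicate, without IL-1β replicate 2 or 3 and without co-culture replicate 1. In co-culture Tkt had 216.22, 224.12 and 204.1 FPKM, 0.15 ± 0.036 above IL-1β (adjusted p = 0.0045, but 0.077 after median-of-ratios scaling). Taldo1, transaldolase, had 158, 161 and 161 FPKM with IL-1β, against 153, 152 and 158 FPKM in control, and did not pass (0.05 ± 0.032, adjusted p = 0.2, but 0.02 after median-of-ratios scaling). In co-culture Taldo1 had 170.89, 167.97 and 159.42 FPKM. Its rise there against control, 0.10 ± 0.032 (adjusted p = 0.042), was lost under 12 of 18 alternatives (0.052 to 0.44), among them without control replicate 1 or 2, IL-1β replicate 2 or 3, or co-culture replicate 1 or 2.

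**Figure D4:**
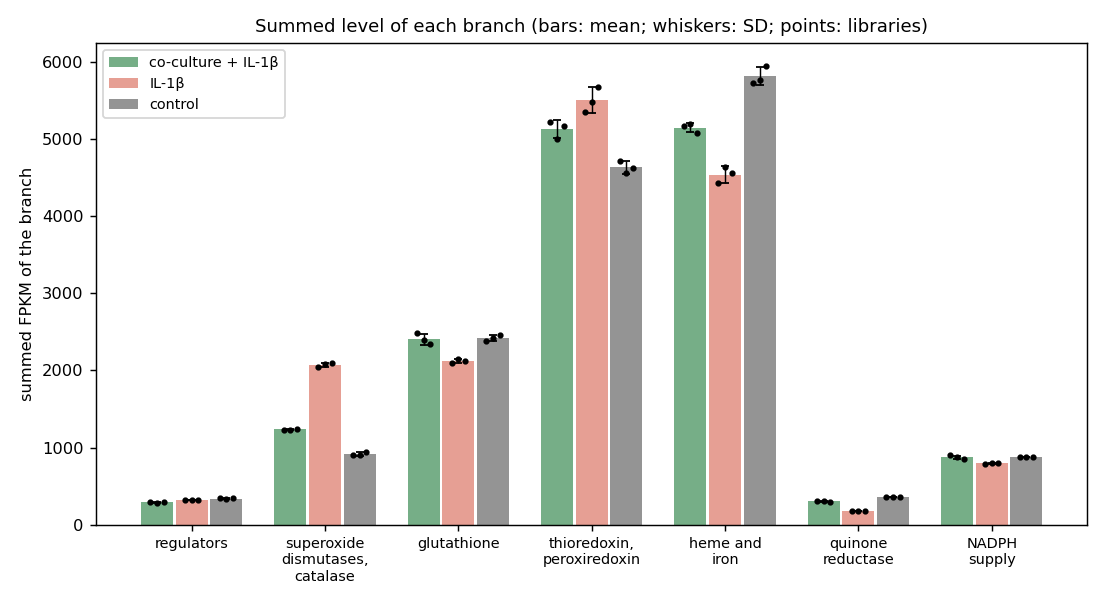
Bars give the mean summed FPKM of each branch over 3 libraries, whiskers the SD and points the libraries, for co-culture with IL-1β, IL-1β and control. The dismutase and catalase sum is highest with IL-1β, at 2070 ± 28.5 FPKM. The heme and iron sum, most of it Ftl1 and Fth1, is highest in control, at 5813 ± 120 FPKM.

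Summed by branch, the superoxide dismutases and catalase reached 1236 ± 6.16 FPKM in co-culture, 2070 ± 28.5 FPKM with IL-1β and 917 ± 23.2 FPKM in control (SD, n = 3 each). The heme and iron genes were at 5147 ± 61.8 FPKM in co-culture, 4538 ± 106 FPKM with IL-1β and 5813 ± 120 FPKM in control. Most of this sum is ferritin, with means in control of 3701 FPKM for Ftl1 and 1799 FPKM for Fth1. The sum over all 39 genes was 15389 ± 185 FPKM in co-culture, 15528 ± 294 FPKM with IL-1β and 15360 ± 174 FPKM in control, and the libraries of the 3 groups overlapped. Sod2 alone made up 4.44 ± 0.039% of that sum in co-culture, 9.69 ± 0.025% with IL-1β and 2.48 ± 0.039% in control.

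The wider list held 109 other genes of redox and iron metabolism, of which 100 had a row, 14 of these stayed under the filter and 86 were tested. Some reached the filter only through the group where they are high, Nos2, Nox1, Cybb and Duox1 among them, so the counts of this list are a description. With IL-1β, 31 rose and 29 fell (69.8%, beside the 51.7% of all genes), and the median log2 fold change was 0.01. For these 4 sources of oxidants the levels are given with no test. Nos2, the inducible nitric oxide synthase, was at 0.05, 0.03 and 0 FPKM in co-culture and at 22.99, 20.42 and 22.23 FPKM with IL-1β, and was listed at 0 in each control library. Nox1, an NADPH oxidase that makes superoxide, had 6.34, 6.24 and 5.97 FPKM with IL-1β, against 0.6, 0.52 and 0.69 FPKM in control, and the groups did not overlap. In co-culture Nox1 had 1.47, 1.27 and 1.04 FPKM, between the other groups.

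Cybb, the phagocyte oxidase subunit, was low in all groups, at 2.39, 2 and 2.4 FPKM with IL-1β, against 0.64, 0.68 and 0.76 FPKM in control. The co-culture libraries had 0.97, 1.07 and 0.72 FPKM and overlapped with control. The summed macrophage and leukocyte markers were also highest with IL-1β, but of the 4 tested 2 were higher and 1 lower than in control. Of all genes, 20.5% were higher and 31.2% lower in that comparison. Cd14, which led the sum, averaged 22.7 FPKM with IL-1β and 13.5 FPKM in control, and Lyz2 averaged 7.99 FPKM and 10.7 FPKM. The part of these markers in the Cybb levels was not tested. Duox1, a dual oxidase, had 0.64, 0.65 and 0.68 FPKM with IL-1β, against 1.85, 2.08 and 1.92 FPKM in control, and 1.09, 1.13 and 1.31 FPKM in co-culture.

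Of 6 other tested genes of cystine and glutathione supply, 2 rose and 3 fell with IL-1β (83.3%, beside 51.7% of all genes). Their median log2 fold change was -0.20. Slc7a11 encodes the cystine importer that feeds glutathione synthesis and is a known target of both NRF2 and ATF4. It had 5.13, 5.19 and 5.59 FPKM with IL-1β, against 2, 2.06 and 1.91 FPKM in control, and rose by 1.08 ± 0.062 on the log2 scale (adjusted p = 4.1e-08). In co-culture it had 1.38, 1.51 and 1.35 FPKM, below both other groups (-1.38 ± 0.062 against IL-1β, adjusted p = 7.6e-09, and -0.31 ± 0.062 against control, adjusted p = 0.0043). At such levels the added 1 FPKM shrinks log2 fold changes. The ratios of mean FPKM were 2.66 for IL-1β against control, 0.266 for co-culture against IL-1β and 0.71 for co-culture against control. Slc3a2, the partner chain of the same importer, named after its values were seen, had 99.65, 96.46 and 91.99 FPKM with IL-1β, against 133.16, 134.42 and 137.58 FPKM in control, and fell by 0.49 ± 0.036 on the log2 scale (adjusted p = 3.5e-07). Chac1, which breaks glutathione down, fell with IL-1β, at 4.01, 2.81 and 2.91 FPKM against 9.41, 9.99 and 11.02 FPKM in control (ratio of means 0.32, adjusted p = 2.7e-07).

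Mgst1, a membrane-bound glutathione transferase, had 346, 360 and 383 FPKM with IL-1β, against 108.67, 120.43 and 129.88 FPKM in control (1.60 ± 0.061, adjusted p = 2.8e-09). In co-culture it had 160.01, 148.62 and 150.54 FPKM (-1.24 ± 0.061 against IL-1β, adjusted p = 4.2e-08). Gstm3, a mu class transferase, averaged 101 ± 6.3 FPKM in co-culture, 171 ± 8.6 FPKM with IL-1β and 91.6 ± 1.7 FPKM in control (SD, n = 3 each), and rose with IL-1β by 0.90 ± 0.047 (adjusted p = 2e-08). Among 18 tested transferase and reductase genes of glutathione, 7 rose and 1 fell with IL-1β. The share of these 18 past the threshold, 44.4%, stood beside 51.7% of all genes (20.5% higher and 31.2% lower).

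Outside the 9 genes above, the thioredoxin system had 9 of 11 tested genes lower and 1 higher with IL-1β. The share of the 11 past the threshold, 90.9%, stood beside 51.7% of all genes (20.5% higher and 31.2% lower). Their median log2 fold change was -0.46. Sesn3, a sestrin of the oxidative stress and nutrient response, had 11.26, 10.9 and 11.65 FPKM with IL-1β, against 26.01, 25.11 and 24.73 FPKM in control (log2 fold change -1.10 ± 0.044, adjusted p = 1.8e-09). Txnip, the thioredoxin inhibitor, named after its values were seen, fell by 0.63 ± 0.036 on the log2 scale (adjusted p = 4e-08). In co-culture 7 of the 11 genes were higher than with IL-1β and none lower (63.6%, beside 50.0% of all genes). Sesn3 was higher there by 0.60 ± 0.044 (adjusted p = 6.3e-07).

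Of 11 other heme and iron genes tested, 3 rose and 6 fell with IL-1β (81.8%, beside 51.7% of all genes). Slc11a2, the divalent metal importer DMT1, had 114, 114 and 113 FPKM with IL-1β, against 32.16, 31.37 and 31.7 FPKM in control, a rise of 1.81 ± 0.027 on the log2 scale (adjusted p = 2.4e-13). In co-culture it had 43.11, 43.37 and 42.63 FPKM (-1.38 ± 0.027 against IL-1β, adjusted p = 6.7e-12, and 0.43 ± 0.027 against control, adjusted p = 8.1e-07). Steap3, an endosomal ferrireductase, fell with IL-1β, at 22.63, 23.28 and 21.42 FPKM against 48.41, 48.74 and 46.86 FPKM in control (-1.06 ± 0.045, adjusted p = 2.5e-09), and was 0.90 ± 0.045 higher in co-culture than with IL-1β (adjusted p = 2e-08). Slc40a1, the iron exporter ferroportin, was low, at 0.3, 0.94 and 0.55 FPKM in co-culture, 0.95, 1.2 and 1.77 FPKM with IL-1β and 1.25, 1.94 and 1.15 FPKM in control. The IL-1β and control libraries overlapped, and the co-culture libraries lay below control and below IL-1β. Its co-culture mean was itself under the filter, and no test is given for it.

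The metallothioneins, small metal-binding proteins that also scavenge oxidants, rose with IL-1β in 2 of 2 genes tested, beside 20.5% of all genes. Mt3 had no row. Mt2A had 4063, 4109 and 4314 FPKM with IL-1β, against 1779, 1732 and 1728 FPKM in control (log2 fold change 1.25 ± 0.035, adjusted p = 5.7e-11), and Mt1 averaged 1722 ± 66 FPKM with IL-1β and 903 ± 32 FPKM in control (0.93 ± 0.04, adjusted p = 3.1e-09). In co-culture Mt2A averaged 2740 ± 83 FPKM, 0.65 ± 0.035 above control (adjusted p = 1.8e-07), and Mt1 averaged 1242 ± 42 FPKM, 0.46 ± 0.04 above control (adjusted p = 1e-05). Over the 86 genes, 32 were higher and 22 lower in co-culture than with IL-1β, or 34 lower after median-of-ratios scaling. The share of the 86 past the threshold, 62.8%, stood beside 50.0% of all genes (33.3% higher and 16.7% lower). Against control 20 of the 86 were higher and 12 lower, although 13 were higher without control replicate 2. That share, 37.2%, stood beside 20.3% of all genes (12.4% higher and 7.91% lower).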

How the data were processed

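RNA of rat synovial fibroblasts was sequenced in 9 libraries, 3 per group, grouped by their titles. The values the authors deposited are FPKM, per the file headers, with 2 decimals. The genome build was GRCm38, a mouse build, per the submitters' processing notes, although the rows carry gene IDs of the rat: RefSeq (rat, GRCr8) lists all 39 under the same symbol. No aligner or quantifier is given in the sources used here, and comparing 1 gene across libraries is safer than comparing genes. Depth is unknown: genes above 0 in 1 library only had a median value of 0.04, too near the last decimal for steps of whole reads. Each FPKM value was transformed as log2(FPKM + 1) and fitted in R 4.3.3 with limma 3.58.1 (empirical Bayes with trend and robust settings, two-sided). With 3 libraries against 3, a permutation test of a single gene cannot go below p = 0.1, so only this fit was used. It was tested on simulated data. Alternatives were 2 other pseudocounts (0.1 and 0.5), 2 other filters, 2 scalings, no trend, only the 6 libraries compared, a replicate block and leaving out each library. Members and lists were chosen with earlier results of these data known. Values in every library are given for members with a called log2 change of 0.5 or more and for the 3 most abundant of each branch. From the wider list, the 8 genes with the largest change per comparison could be named.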

Additional observations from a re-analysis of the deposited data

How the results depend on the processing

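Each fit was repeated under 18 alternatives. Of the called antioxidant genes, 21 of 27 (IL-1β against control), 20 of 26 (co-culture against IL-1β) and 12 of 16 (co-culture against control) were called in all of them. Scaling moved the split most. Median-of-ratios scaling gave 13 antioxidant genes and 34 other pathway genes lower in co-culture than with IL-1β, and 11 antioxidant genes lower than control. Quantile normalization gave 15 lower than control. Leaving out 1 library gave 13 (without control replicate 2) to 19 other pathway genes higher in co-culture than control. The cause was not tested. In 29 cases a log2 fold change that did not pass changed sign, and none passed in the new direction. For IL-1β against control, quantile normalization gave -0.03 for Cat, -0.001 for Gsr and -0.02 for Taldo1, and median-of-ratios scaling 0.01 for Prdx1, 0.02 for Prdx2 and 0.001 for Prdx3. For co-culture against IL-1β, median-of-ratios scaling gave -0.07 for Sod1 and -0.01 for Taldo1, and quantile normalization 0.03 for Prdx6. For co-culture against control, quantile normalization gave -0.04 for Gpx4, Prdx1, Prdx2 and Prdx4 and -0.02 for Tkt. Leaving out 1 library gave, for IL-1β against control, -0.01 to 0.02 for Cat, -0.07 to 0.02 for Prdx1 and -0.23 to 0.05 for Slc40a1. It gave, for co-culture against IL-1β, -0.02 to 0.03 for Sod1, -0.08 to 0.01 for Gstm1 and -0.04 to 0.02 for Hmox2, and for co-culture against control -0.05 to 0.03 for Gsta4 and -0.16 to 0.02 for Osgin1. Same-numbered libraries correlated at -0.046 to 0.19, and 3 of 9 correlated best with their own number, so the numbers were not taken as pairs. A replicate block gave 11 higher and 16 lower, 18 and 8, and 8 and 8 antioxidant genes in the 3 comparisons. Of the antioxidant genes in co-culture against control, the block gained Gpx7 (adjusted p = 0.035) and lost Taldo1 (0.067). Depth is unknown, which limits what can be said of genes near 1 FPKM.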
